A study of Drosophila melanogaster with 4 samples.

Results

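Cytochrome P450 genes were followed through single nucleus RNA sequencing of the *Drosophila melanogaster* brain after chronic exposure to sodium arsenite (NaAsO2). The members were 60 genes of a list of locus tags, out of 17772 genes in the matrices. The rule that lists them uses no measured value, though it was drawn up with earlier results of these data known. By the RefSeq annotation 59 of the 60 are cytochrome P450 genes. The exception, Dmel_CG1893, is annotated as scramb2, a phospholipid scramblase, and is described apart at the end. A further 27 genes with a Cyp symbol are in the matrices and were not on the list.

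Flies of Canton S (B), abbreviated CSB, a laboratory strain that the study's text also gives as w1118, a mutation of the eye colour gene white, were compared in 4 groups: females on food with 250 µM NaAsO2, females on control food, males on food with 250 µM NaAsO2 and males on control food. Brains were taken after 6 days of exposure, and each group was 1 library from 10 pooled brains. With 1 library per group there was no replicate, so no test between groups was possible, and every interval given is a 95% interval for counting error only. Differences between flies, pools and library preparations lie outside these intervals, and treatment cannot be told apart from library in either sex.

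P450 enzymes are heme monooxygenases that insert an oxygen atom from molecular oxygen into lipids, hormones, dietary toxins and insecticides. The microsomal enzymes, which in *Drosophila* include the Cyp4, Cyp6, Cyp9 and Cyp28 genes, receive electrons from the reductase Cpr and in some reactions from cytochrome b5. The mitochondrial enzymes, which include Cyp12, Cyp49a1, Cyp301a1 and the ecdysone enzyme shd, depend on ferredoxins. In insects many P450 genes are expressed in fat body and gut, and in the brain glia, those of the blood-brain barrier included, are a site of detoxification gene expression.

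The libraries differed in size and in nuclear depth. They held 25332 nuclei (NaAsO2 females), 19188 (control females), 10000 (NaAsO2 males) and 14895 (control males), with 33235404 to 53360256 unique molecular identifiers (UMIs, 1 per captured RNA molecule) each. No nucleus of NaAsO2 males had under 1766 UMIs, while the other 3 libraries reach down to 500, and the median nucleus of NaAsO2 males was also the deepest, at 2665.5 UMIs against 1374 to 2222. Pairs of libraries shared 45 to 135 cell barcodes. Levels are CPM, the UMIs of a gene per 1000000 UMIs of a library or of a class of nuclei within it. They are not divided by gene length and are read here between libraries and classes, not as an order of abundance between genes.

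Nuclei were clustered without the P450 genes, and classes were named from marker lists. The glial classes were astrocyte-like, ensheathing, cortex, optic chiasm, perineurial and subperineurial glia-like nuclei, pooled below as glia. Of the nuclei, 3286 were glia in NaAsO2 females, 3396 in control females, 1403 in NaAsO2 males and 3870 in control males. Fat body cell-like nuclei numbered 120, 182, 87 and 188 in the same order, plasmatocyte-like nuclei (the macrophage-like hemocytes of the fly) 248, 153, 69 and 264, and the other neuronal nuclei 21094, 14728, 7181 and 10067. These last, called neurons below, are the unnamed clusters in which none of the glial markers repo, loco and nrv2 was raised. No neuronal marker was required of them. A cluster led by genes such as Crz, Pdf and Hug had 1 raised glial marker and was left in no named class. In whole-library and pooled glial values fewer nuclei of a type and less RNA per nucleus cannot be told apart.

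Together the 59 P450 genes gave 67925 UMIs over the 4 libraries, and the 5 most counted genes held 62.8% of them. Summed P450 RNA was 424 CPM in NaAsO2 females (95% Poisson interval 418 to 430) and 344 in control females (339 to 349), 416 in NaAsO2 males (409 to 422) and 485 in control males (477 to 492). Of the 59 genes, 38 had at least 100 UMIs and are all named below, 21 had fewer, and 3 of those had under 10.

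Cyp49a1 (Dmel_CG18377), a mitochondrial P450, was the most counted, with 76.7 CPM in NaAsO2 females, 74.1 in control females, 116 in NaAsO2 males and 124 in control males. Cyp28d1 (Dmel_CG10833), a microsomal P450 of the Cyp28 subfamily which is tied to nicotine resistance in the fly, followed with 91.8, 72.3, 74.5 and 88.6 CPM. Cyp4g15 (Dmel_CG11715), the brain paralogue of the cuticular hydrocarbon enzyme Cyp4g1, had 45.5, 43.0, 34.4 and 43.2 CPM. With Cyp9f2 (28.6, 22.3, 15.7 and 28.3 CPM) and Cyp28a5 (19.5, 14.3, 14.1 and 16.0) they make up the 5 most counted genes. At the other end Cyp304a1 and Cyp6d2 had 2 UMIs each.

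**Figure D1:**
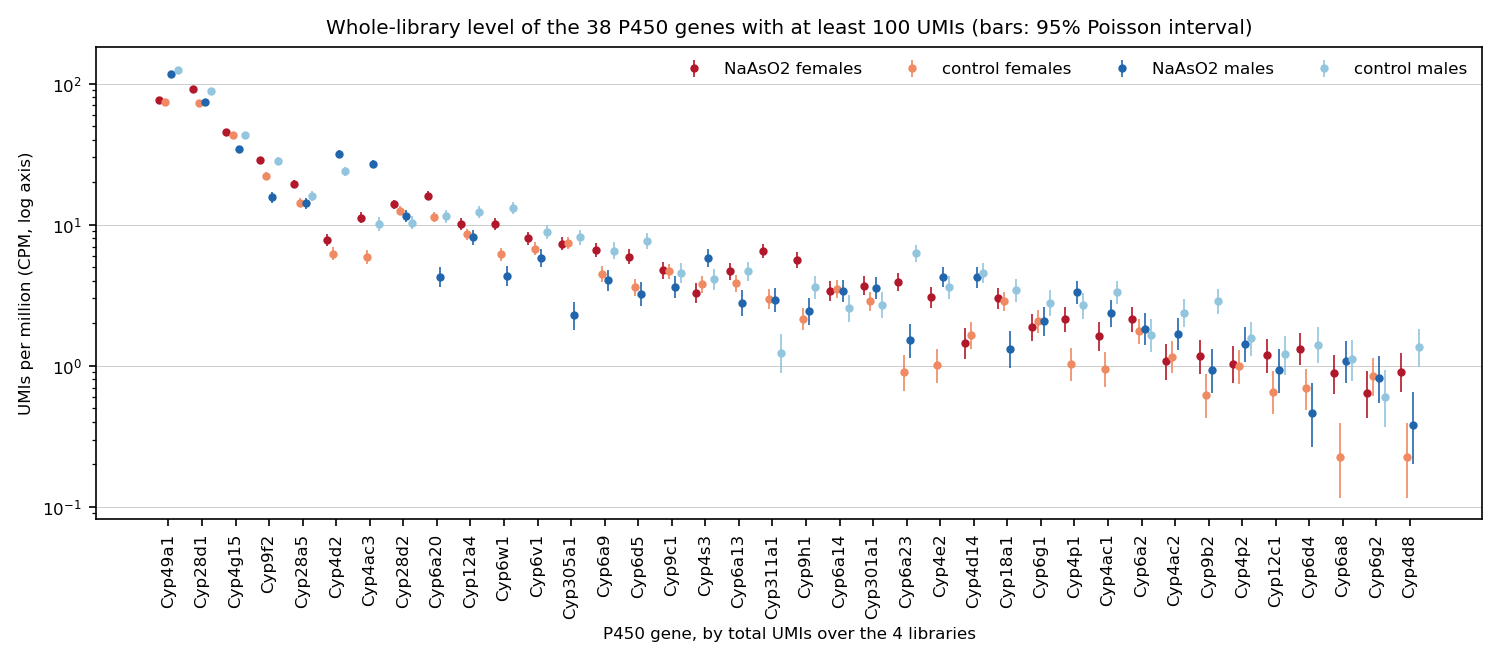
Whole-library level in CPM (log axis) of the 38 P450 genes with at least 100 UMIs, ordered by total UMIs, with 1 point per library and bars for the 95% Poisson interval of counting error. Cyp49a1 lies between 74.1 and 124 CPM and Cyp28d1 between 72.3 and 91.8 CPM, and Cyp6a23, at 3.92 CPM in NaAsO2 females against 0.900 in control females and 1.52 in NaAsO2 males against 6.26 in control males, moves in opposite directions in the sexes.

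In the genome 27 of the members lie on chromosome arm 2R, and 28 lie within 5000 bases of another member, in 10 runs. The longest run holds 8 Cyp6a genes (Cyp6a22, Cyp6a17, Cyp6a23, Cyp6a19, Cyp6a9, Cyp6a20, Cyp6a21 and Cyp6a8) at 2R:14871366-14889010 of the release 6 assembly. Neighbours often differed in class. By the mean of both controls Cyp6a20 was highest within that run in perineurial glia-like, Cyp6a9 in subperineurial glia-like and Cyp6a23 in plasmatocyte-like nuclei. In control males alone Cyp6a20 was higher in subperineurial than in perineurial nuclei (105 against 86.7 CPM). Cyp6a9 was there higher in plasmatocyte-like than in subperineurial nuclei (48.2 against 35.4 CPM). Close paralogues such as these, and Cyp4ac1, Cyp4ac2 and Cyp4ac3 at 2L:5264001-5270329, can share reads, and their counts are uncertain to that extent. In all, 29 members overlap another gene. Cyp49a1 overlaps Galphao on the opposite strand over 9543 bases, and Galphao had 769, 822, 853 and 838 CPM in NaAsO2 females, control females, NaAsO2 males and control males. The 3 Cyp4ac genes overlap tkv, a BMP receptor gene on the opposite strand, and Cyp4p1 and Cyp4p2 overlap hig. On the same strand Cyp4g1 overlaps CG32816 over 2279 bases and Cyp6a2 overlaps Epac over 1743 bases. What these overlaps do to the counts was not tested. How counting treated strand is not given in the sources used here.

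At baseline most of the better counted P450 genes were glial, fat body or hemocyte genes rather than neuronal ones. Summed P450 RNA in control nuclei was 977 CPM in female and 1070 CPM in male glia, against 197 and 264 CPM in female and male neuronal nuclei. Each gene with enough counts was assigned to the class with its highest mean control level, or to neurons where no class reached 3 times the neuronal level. Of the 38 genes 8 fell to neurons, 14 to glial classes, 9 to fat body cell-like and 7 to plasmatocyte-like nuclei. Control females and control males did not always have the same highest class. Droplets also take up free RNA, so a glial gene has some UMIs in neuronal nuclei. The glial markers repo and loco stood in neurons at 3.55% to 6.45% of their glial level over the 4 libraries, and nrv2 at 14.5% to 23.8%.

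**Figure D2:**
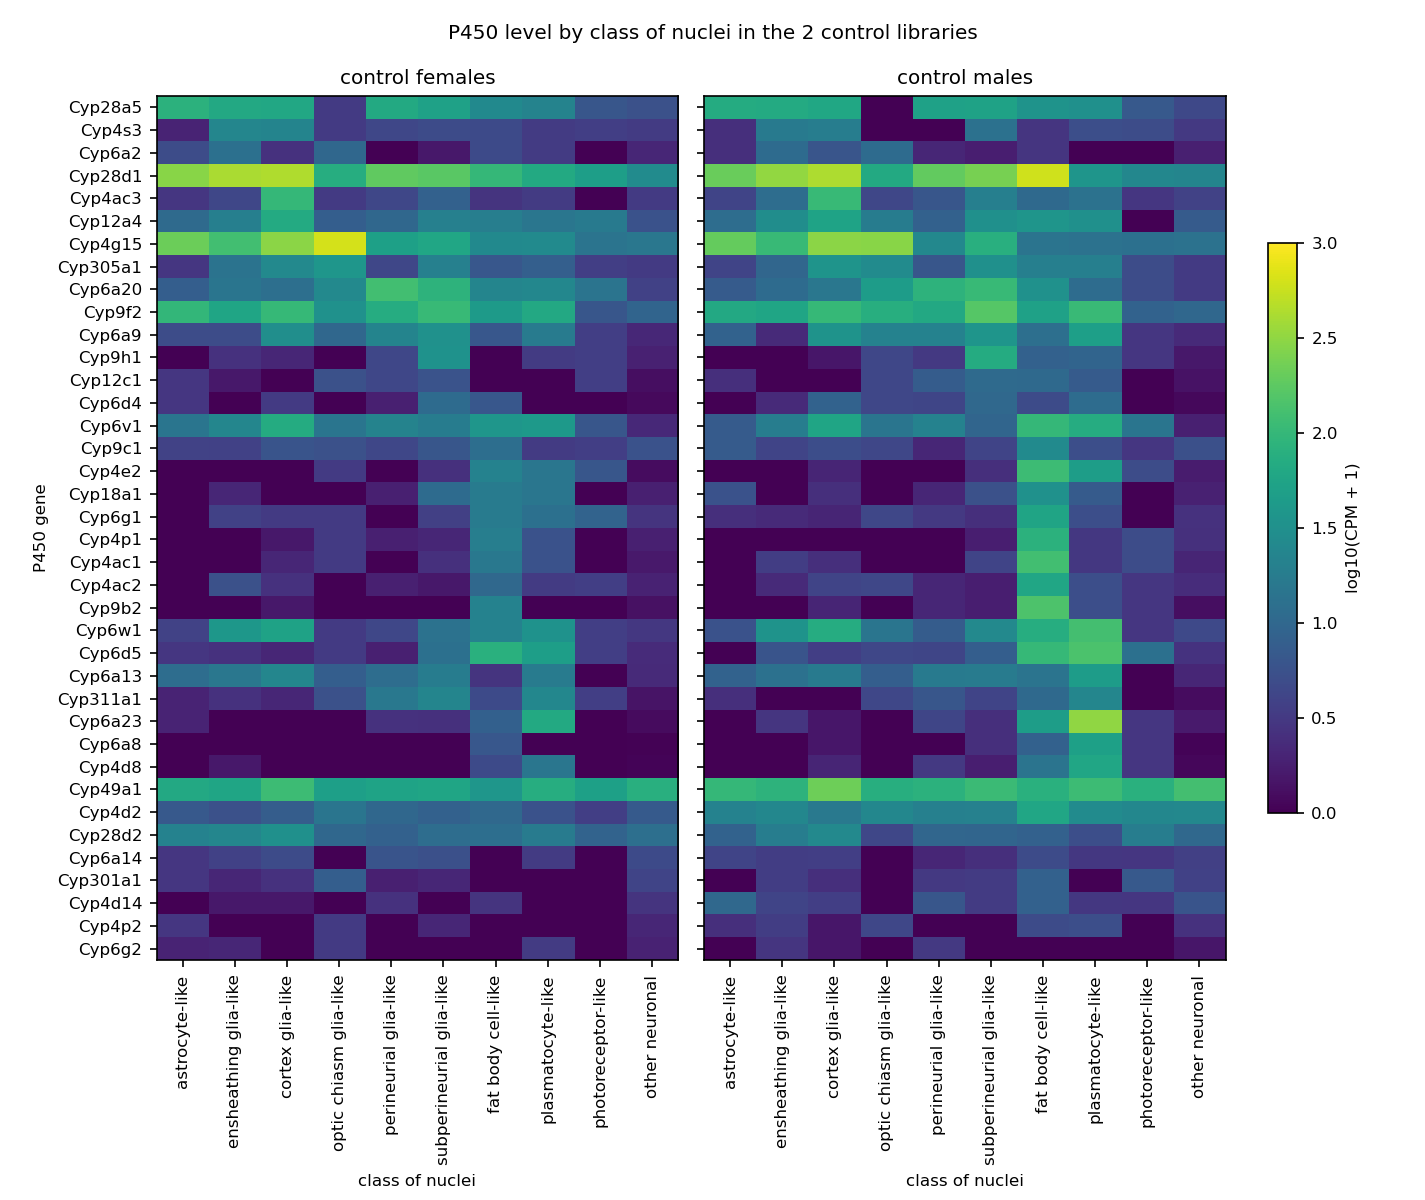
Level of 38 P450 genes (rows) in 10 classes of nuclei (columns) of control females (left) and control males (right), as colour on a log10(CPM + 1) scale. Cyp28d1 is bright across the glial columns (441 CPM in female and 425 CPM in male cortex glia-like nuclei), Cyp4g15 peaks in optic chiasm glia-like nuclei of females (635 CPM), and a block of genes such as Cyp9b2 is dim in the fat body column of females and bright in that of males (20.2 and 144 CPM).

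Among glia, Cyp28d1 was present in every class, in control females at 441 CPM in cortex, 411 in ensheathing, 289 in astrocyte-like, 183 in perineurial, 171 in subperineurial and 72.8 in optic chiasm glia-like nuclei. Control males had 425, 324, 207, 192, 241 and 64.6 CPM of Cyp28d1 in the same classes, so that subperineurial nuclei stood above astrocyte-like and perineurial ones in control males and below both in control females. Its neuronal level was 27.3 CPM in control females and 22.3 in control males, or 9.24% and 7.51% of that in glia. Cyp28a5 was even across astrocyte-like, cortex and ensheathing nuclei, with 84.6, 61.5 and 63.2 CPM in control females and 68.3, 60.6 and 67.0 CPM in control males. Cyp4g15 instead had a clear order, with optic chiasm glia-like nuclei at 635 CPM, cortex at 298, astrocyte-like at 213 and perineurial at 49.1 CPM in control females. In control males optic chiasm and cortex nuclei were close at 292 and 298 CPM.

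Cyp4ac3 and Cyp9h1 each stood out in a single glial class. Cyp4ac3 (Dmel_CG14031) was a cortex glia gene, with 99.4 CPM in control female and 103 in control male cortex glia-like nuclei and 1.97 to 18.5 CPM in the other glial classes of the controls. Cyp9h1 was a subperineurial gene at 33.0 CPM in control females and 69.2 in control males, against 0.910 and 0.577 CPM in neurons. Both layers of the blood-brain barrier held Cyp6a20, a P450 known for its effect on male aggression, with 121 and 86.7 CPM in female and male perineurial and 86.1 and 105 CPM in subperineurial control nuclei. Cyp9f2 was highest in subperineurial nuclei (104 CPM in control females, 161 in control males) and also present in the other glial classes. Lower glial genes were Cyp12a4, a gene tied to lufenuron resistance (67.6 and 54.4 CPM in female and male control cortex glia-like nuclei), Cyp4s3 (23.1 and 15.8 in ensheathing nuclei) and Cyp6a2 (11.8 and 10.1 in ensheathing nuclei). Cyp4s3 was at a similar level in cortex glia-like nuclei, with 21.4 CPM in control females and 17.5 in control males. In subperineurial nuclei Cyp6a9 had 31.9 CPM in control females and 35.4 in control males, Cyp12c1 4.87 and 10.0, and Cyp6d4 10.3 and 9.23. Cortex glia-like nuclei of control females had 29.1 CPM of Cyp6a9.

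Fat body cell-like and plasmatocyte-like nuclei are not brain tissue proper, and brains carry some of both. The class markers differed between the controls, with summed fat body markers at 33854 CPM in control females and 96819 in control males and plasmatocyte markers at 14341 and 28359, and their part in the P450 values that follow was not tested. In fat body cell-like nuclei Cyp9b2 had 20.2 CPM in control females and 144 in control males, Cyp4ac1 14.7 and 121, Cyp4e2 20.2 and 112, Cyp6v1 36.8 and 98.4, Cyp4p1 18.4 and 83.3. Lower in control females were also Cyp4ac2 at 9.20 and 58.7 CPM, Cyp6g1, the DDT resistance gene, at 16.6 and 54.9, Cyp18a1, which inactivates 20-hydroxyecdysone, at 16.6 and 32.2, and Cyp9c1 at 11.0 and 26.5. Of these genes Cyp6v1 was higher in cortex glia-like nuclei of control females, at 69.8 CPM. Plasmatocyte-like nuclei were led by Cyp6a23 with 66.2 CPM in control females and 317 in control males. Cyp6w1, Cyp6d5, Cyp6a13 and Cyp4d8 had 33.1, 47.3, 16.5 and 14.2 CPM in control female plasmatocyte-like nuclei, and 126, 140, 44.0 and 58.7 CPM in control male ones. In control females Cyp6w1 and Cyp6a13 were higher in cortex glia-like nuclei (52.7 and 22.5 CPM), and Cyp6d5 in fat body cell-like nuclei (79.1 CPM). Cyp311a1 was level there at 23.6 CPM in control females and 23.1 in control males. No Cyp6a8 UMI was counted in control female plasmatocyte-like nuclei, which allows up to 7.09 CPM, and control males had 50.3 CPM.

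The most counted P450 gene in neurons was Cyp49a1, at 81.0 CPM in NaAsO2 females, 76.8 in control females, 112 in NaAsO2 males and 127 in control males, where all P450 genes summed to 213, 197, 237 and 264 CPM in the same order. It was not restricted to neurons, and control cortex glia-like nuclei held more of it, 112 CPM in females and 215 in males. Within neurons 1 cluster led by Eaat1 and witty stood highest, with 167 CPM in NaAsO2 females, 141 in control females, 172 in NaAsO2 males and 311 in control males. Cyp4d2 differed between the sexes in neurons, with 7.65 CPM in NaAsO2 females and 6.06 in control females, 25.4 in NaAsO2 males and 24.3 in control males. In neurons Cyp4d14, its neighbour on the X chromosome, had 1.52 CPM in NaAsO2 females, 1.84 in control females, 4.29 in NaAsO2 males and 4.99 in control males. For these adjacent genes both libraries of 1 sex lay close together and apart from those of the other sex.

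The remaining neuronal genes were low. Cyp28d2 had 12.1, 11.6, 8.80 and 9.23 CPM in neurons of NaAsO2 females, control females, NaAsO2 males and control males. In the same order Cyp6a14 had 3.75, 3.69, 3.94 and 2.68 CPM, and Cyp301a1, a mitochondrial P450 of cuticle formation, 3.86, 3.16, 3.15 and 2.80. Cyp4p2 had 1.19, 1.13, 1.62 and 1.69 CPM, and Cyp6g2 0.580, 0.958, 0.744 and 0.536. For none of them except Cyp6g2 was a call made with NaAsO2 in neurons. That call was in females and rests on 21 UMIs with NaAsO2 and 40 in the control.

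The question of the study is what arsenite does in each sex. A P450 gene was called higher or lower where its NaAsO2 and control levels in 1 sex differed by at least 1.5-fold. The 2 libraries also had to hold at least 50 UMIs of it. This is a rule of size and not a test, and the interval of a called ratio can span 0. In whole libraries of females 15 of the 40 genes that reached the minimum were higher with NaAsO2 and 0 lower, where 6.46% of all genes were called higher and 1.23% lower. In males 2 of 38 were higher and 15 lower, where 3.88% of all genes were called higher and 23.2% lower. The median log2 ratio of the members was 0.35 in females, against 0.09 over all genes, and -0.40 in males, against -0.21 over all genes. Among nuclei with at least 1766 UMIs the male medians were -0.05 for the members and -0.18 over all genes, so the members were then not the lower ones, and the female medians were 0.51 and 0.09. As mean UMIs per nucleus the members' median changed sign in both sexes, to -0.28 in females, against -0.55 over all genes, and to 0.22 in males, against 0.41.

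Between the controls, 1 of 37 genes was higher in females (3.25% of all genes) and 17 were lower (13.9% of all genes), with a median log2 ratio of -0.53 against -0.14 over all genes. Control females had more Cyp311a1, 2.98 CPM against 1.23 in control males. Cyp6a23 differed most, with 0.900 CPM in control females and 6.26 in control males (log2 ratio -2.80, interval -3.28 to -2.34), followed by Cyp4d8 with 0.225 and 1.35, and Cyp9b2 with 0.618 and 2.86 CPM. Next came Cyp4d2 (6.24 and 24 CPM), Cyp4e2 (1.01 and 3.61), Cyp4ac1 (0.956 and 3.34), Cyp4d14 (1.65 and 4.57) and Cyp4p1 (1.03 and 2.68). The lower calls also took in Cyp6w1 (6.17 and 13.2 CPM), Cyp6d5 (3.60 and 7.67), Cyp6d4 (0.693 and 1.41), Cyp4ac2 (1.16 and 2.38), Cyp12c1 (0.656 and 1.20), Cyp4ac3 (5.94 and 10.1), Cyp9h1 (2.16 and 3.61), Cyp49a1 (74.1 and 124) and Cyp4p2 (0.993 and 1.56). The contrasts of females and males with NaAsO2 use these same control libraries.

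Cyp4ac3 was higher with NaAsO2 in both sexes. In cortex glia-like nuclei it had 214 CPM in NaAsO2 females against 99.4 in control females, and 435 CPM in NaAsO2 males against 103 in control males. That was 2.15-fold in females (log2 ratio 1.11, interval 0.83 to 1.38) and 4.23-fold in males (2.08, interval 1.85 to 2.32). It was called in the same direction in whole libraries (11.2 against 5.94 CPM in females, 26.7 against 10.1 in males), in pooled glia (54.8 against 25.7, and 113 against 37.2) and in neurons (3.78 against 2.23, and 4.90 against 2.93), and in males in subperineurial glia-like nuclei (33.0 against 18.5). The neuronal level was 4.35% to 8.67% of the glial one in the 4 libraries. The antisense host tkv in cortex glia-like nuclei had a log2 ratio of 0.31 in females and 0.52 in males. The neighbours Cyp4ac1 and Cyp4ac2 were counted at 1.02 and 1.19 CPM in NaAsO2 female glia, 0.741 and 1.61 in control female, 1.89 and 2.92 in NaAsO2 male and 1.64 and 1.64 in control male glia.

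Cortex glia-like nuclei held other calls. Of 14 genes that reached the minimum in females, 2 were higher and 0 lower (2.15% and 10.5% of all genes), and in males 1 was higher and 5 lower (7.05% and 22.8% of all genes). Cyp28a5 had 121 CPM in NaAsO2 females against 61.5 in control females, and 86.6 in NaAsO2 males against 60.6 in control males, which is under the fold used. Cyp305a1, a P450 of the CYP2 clan, had 3.12 CPM in NaAsO2 males, from 4 UMIs, against 34.4 in control males, from 67 UMIs (log2 ratio -3.46, interval -5.38 to -2.04), and 31.2 in NaAsO2 females against 24.7 in control females. Cyp6w1 had 18.7 CPM in NaAsO2 males against 70.4 in control males, and 71.3 in NaAsO2 females against 52.7 in control females. The other lower calls in males were Cyp49a1 (131 against 215 CPM), Cyp9f2 (63.2 against 100) and Cyp6a9 (19.5 against 33.4). Cyp28d1, the most counted P450 of these nuclei, had 651 CPM in NaAsO2 females against 441 in control females, and 508 in NaAsO2 males against 425 in control males, under the fold used in both sexes. Cyp12a4 had 80.2 against 67.6 CPM in females and 52.3 against 54.4 in males.

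**Figure D3:**
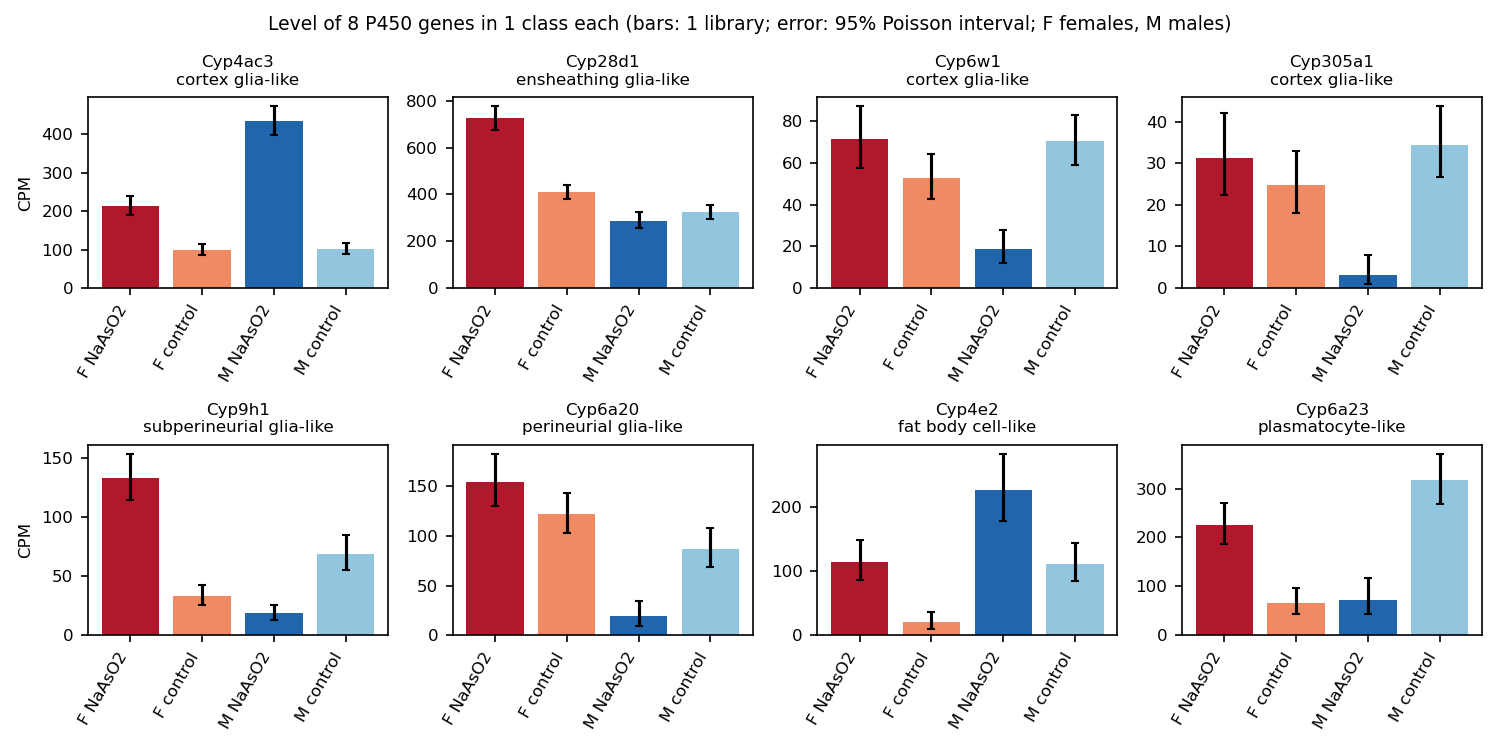
Level in CPM of 8 P450 genes, chosen after their values were seen, in 1 class of nuclei each, with a bar for each library (NaAsO2 females, control females, NaAsO2 males, control males) and error bars for the 95% Poisson interval. Cyp4ac3 in cortex glia-like nuclei (214 against 99.4 CPM in females, 435 against 103 in males) and Cyp4e2 in fat body cell-like nuclei are higher with NaAsO2 in both sexes, whereas Cyp9h1 and Cyp6a23 are higher in females and lower in males.

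Ensheathing glia-like nuclei, which wrap the neuropil, held many higher calls in females: 8 of 12 genes were higher and 0 lower (3.57% and 3.43% of all genes). Cyp28d1 had 725 CPM in NaAsO2 females against 411 in control females (log2 ratio 0.82, interval 0.67 to 0.97). Cyp12a4 (37.2 against 18.6 CPM), Cyp6a20 (26.8 against 13.5), Cyp28d2 (44.2 against 23.1) and Cyp6w1 (69.3 against 37.2) were 1.86- to 2-fold higher. Cyp28a5 (110 against 63.2 CPM), Cyp6a13 (24.2 against 14.7) and Cyp9f2 (87.4 against 57.5) followed. In males 0 of 8 were higher and 3 lower (4.5% and 25.8% of all genes): Cyp6w1 with 13.5 CPM in NaAsO2 males against 33.5 in control males, Cyp12a4 with 12.5 against 28.4 and Cyp4d2 with 13.5 against 23.4. Cyp28d1 had 288 CPM in NaAsO2 males against 324 in control males. Neither Cyp4s3 (22.5 against 23.1 CPM in females, 10.6 against 15.8 in males) nor Cyp6a2 (5.19 against 11.8, and 7.70 against 10.1) reached both the count minimum and the fold.

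Astrocyte-like nuclei gave 0 calls among 5 genes in females (3.25% of all genes higher, 3.22% lower) and 0 higher and 4 lower among 5 in males (5.12% and 21% of all genes). Cyp28a5 had 24.5 CPM in NaAsO2 males against 68.3 in control males (log2 ratio -1.48, interval -2.34 to -0.67), and 112 in NaAsO2 females against 84.6 in control females. Cyp9f2 (25.8 against 63.7 CPM), Cyp28d1 (124 against 207) and Cyp4g15 (126 against 196) were the other lower calls in males. In optic chiasm glia-like nuclei Cyp4g15 had 813 CPM in NaAsO2 females against 635 in control females, and 366 in NaAsO2 males against 292 in control males, all under the fold used. Of the members 0 of 2 were called there in females (4.37% of all genes higher, 5.03% lower), and in males 1 of 3 was higher and 0 lower (10.7% and 16.8% of all genes). The call was Cyp28d1, with 101 CPM in NaAsO2 males against 64.6 in control males (log2 ratio 0.65, interval -0.19 to 1.53). Pooled over glia, Cyp305a1 had 16.4 CPM in NaAsO2 females against 15.6 in control females, but 3.43 in NaAsO2 males against 20.3 in control males (log2 ratio -2.57, interval -3.32 to -1.88).

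In blood-brain barrier nuclei the calls of the sexes mostly ran in opposite directions, a difference that was not tested. In subperineurial glia-like nuclei 7 of 13 genes were higher in females and 0 lower (10.7% and 4.34% of all genes), while in males 1 of 12 was higher and 9 lower (7.97% and 27.9% of all genes). Cyp9h1 had 133 CPM in NaAsO2 females against 33.0 in control females (log2 ratio 2.01, interval 1.59 to 2.46), and 18.4 in NaAsO2 males against 69.2 in control males (-1.91, interval -2.53 to -1.32). Cyp9f2 had 169 against 104 CPM in females and 44.7 against 161 in males. In CPM both genes were thus higher in NaAsO2 females and lower in NaAsO2 males than in their controls, by more than counting error. Cyp28d1 (274 against 171 CPM in females, 159 against 241 in males) and Cyp4g15 (95.6 against 58.5, and 40.8 against 76.9) had the same opposite pattern in CPM. These nuclei averaged 10649.5 UMIs in NaAsO2 males against 2675.6 in control males, and 2839.8 in NaAsO2 females against 3905.2 in control females. As mean UMIs per nucleus the male log2 ratios turned positive, to 0.09 for Cyp9h1, 0.15 for Cyp9f2, 1.39 for Cyp28d1 and 1.08 for Cyp4g15, and against the class markers those of Cyp28d1 (0.75) and Cyp4g15 (0.44) did too. The part of depth in these ratios was not tested. The other higher calls in females were Cyp311a1 (42.0 against 22.2 CPM), Cyp6v1 (32.6 against 17.3) and Cyp6a13 (29.7 against 17.3). In males the lower calls also included Cyp6a20 (17.3 against 105 CPM), Cyp305a1 (5.59 against 30.8), Cyp12a4 (13.4 against 30.8), Cyp28a5 (24 against 53.1) and Cyp6a9 (20.1 against 35.4). Cyp6a9 had 44.2 against 31.9 CPM in females, under the fold used. Cyp12c1 (7.97 against 4.87 CPM in females, 2.79 against 10.0 in males) and Cyp6d4 (4.35 against 10.3, and 2.79 against 9.23) were under the count minimum.

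In perineurial glia-like nuclei 2 of 6 genes were higher and 0 lower in females (5.67% and 3.5% of all genes), Cyp28d1 with 289 CPM against 183 and Cyp28a5 with 102 against 64.9. In males 0 of 5 were higher and 3 lower (8.39% and 25.2% of all genes). Cyp6a20 had 19.0 CPM in NaAsO2 males against 86.7 in control males (log2 ratio -2.19, interval -3.25 to -1.27), and 155 in NaAsO2 females against 121 in control females. Cyp9f2 (22.5 against 63.9 CPM) and Cyp28a5 (22.5 against 50.9) were lower in males as well. Pooled over all glia, 7 of 22 genes were higher in females and 0 lower (5.07% and 1.84% of all genes), and in males 2 of 20 were higher and 9 lower (3.87% and 27.9% of all genes). The median log2 ratio of the members in glia was 0.45 in females, against 0.01 over all genes, and -0.38 in males, against -0.23. The mix of glial classes differed between the male libraries. Subperineurial nuclei held 1789110 of 5829005 glial UMIs in NaAsO2 males and 1300338 of 6690291 in control males. The part of this mix in the pooled ratios was not tested. The pooled female calls were Cyp4ac3, Cyp9h1 (34.1 against 8.64 CPM), Cyp28d1 (451 against 295), Cyp28d2 (28.3 against 18.6), Cyp6w1 (36.7 against 23.8), Cyp18a1 (5.46 against 2.72) and Cyp311a1 (13.6 against 8.27). In males Cyp4ac3 and Cyp311a1 (6.69 against 1.64 CPM) were higher. The lower ones were Cyp305a1, Cyp6a20 (11.3 against 41.4 CPM), Cyp6w1 (9.95 against 35.1), Cyp9h1 (6.18 against 14.1), Cyp9f2 (42.0 against 91.9), Cyp6a13 (6.86 against 14.2), Cyp6a9 (13.0 against 21.4), Cyp12a4 (20.4 against 31.4) and Cyp4s3 (7.38 against 11.4).

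**Figure D4:**
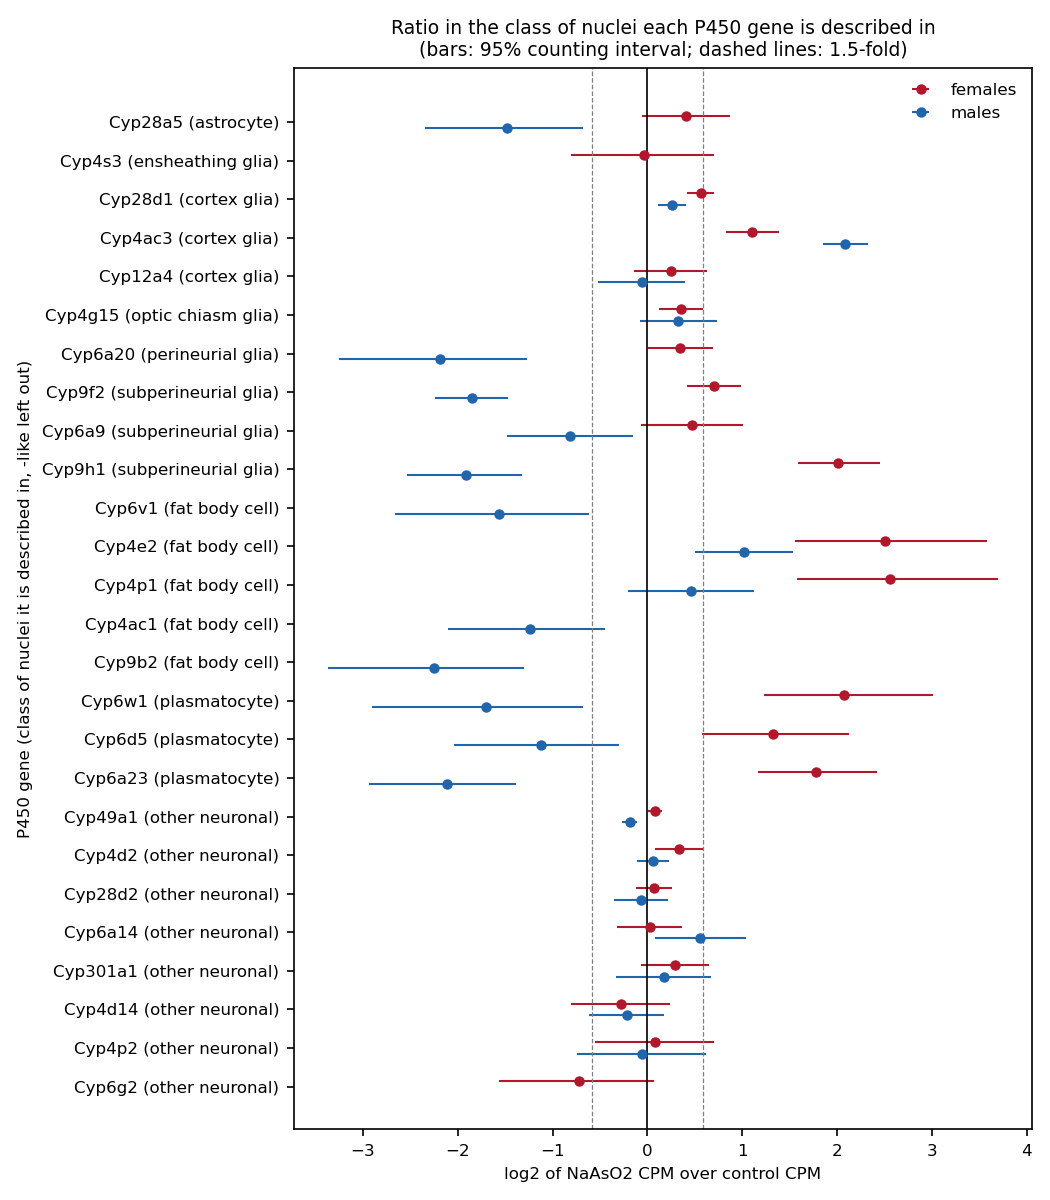
Log2 ratio of NaAsO2 over control CPM for P450 genes with at least 50 UMIs over the pair of libraries, in the class of nuclei each is described in, with females in red above males in blue, 95% counting intervals as bars and dashed lines at 1.5-fold. Cyp4ac3 and Cyp4e2 lie right of the dashed line in both sexes, the plasmatocyte and subperineurial genes Cyp6a23 (1.77 and -2.12) and Cyp9h1 (2.01 and -1.91) lie on opposite sides, and of the neuronal genes Cyp6g2 alone lies beyond a dashed line.

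In fat body cell-like nuclei 3 of 5 genes were higher in females and 0 lower (18.3% and 16.6% of all genes), and in males 1 of 9 was higher and 6 lower (37.6% and 15.9% of all genes). Cyp4e2 had 115 CPM in NaAsO2 females against 20.2 in control females (log2 ratio 2.50, interval 1.56 to 3.58), and 226 in NaAsO2 males against 112 in control males (1.02, interval 0.51 to 1.54). It was the only P450 called higher in these nuclei in both sexes. Cyp4p1 had 109 CPM in NaAsO2 females against 18.4 in control females (log2 ratio 2.56, interval 1.57 to 3.70), and 115 in NaAsO2 males against 83.3 in control males. Cyp28d1 went opposite ways, with 189 against 99.4 CPM in females, and 63.3 in NaAsO2 males against 608 in control males (log2 ratio -3.26, interval -3.97 to -2.63). The other lower calls in males were Cyp9b2 (30.2 against 144 CPM), Cyp6v1 (33.2 against 98.4), Cyp4ac1 (51.3 against 121), Cyp6d5 (63.3 against 102) and Cyp49a1 (51.3 against 79.5). In females Cyp9b2 had 26.1 against 20.2 CPM and Cyp6v1 40.2 against 36.8. Under the count minimum in both sexes were Cyp18a1 (26.1 against 16.6 CPM in females, 24.1 against 32.2 in males), Cyp6g1 (8.04 against 16.6, and 9.05 against 54.9) and Cyp4ac2 (6.03 against 9.20, and 15.1 against 58.7). Cyp9c1 had 20.1 against 11.0 CPM in females, and 0 UMIs in NaAsO2 males, which allows up to 9.05 CPM, against 26.5 CPM in control males.

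In plasmatocyte-like nuclei the calls of the sexes were opposite. Of 7 genes in females 5 were higher and 0 lower (17.8% and 11% of all genes), and of 5 in males 0 were higher and 4 lower (9.62% and 19.6% of all genes). Cyp6a23 had 226 CPM in NaAsO2 females against 66.2 in control females (3.42-fold), and 73.0 in NaAsO2 males against 317 in control males (log2 ratio -2.12, interval -2.93 to -1.39). Cyp6w1 had 139 against 33.1 CPM in females and 38.7 against 126 in males, Cyp6d5 118 against 47.3 and 64.4 against 140, and Cyp9f2 154 against 63.8 and 34.4 against 107. Cyp6v1 was called in females only (72.3 against 40.2 CPM), with 64.4 against 71.3 in males, and its female interval, -0.01 to 1.77, spans 0. For these genes NaAsO2 females and control males were the high libraries, and control females and NaAsO2 males the low ones. Cyp6a13 (34.2 against 16.5 CPM in females, 21.5 against 44.0 in males), Cyp4d8 (39.9 against 14.2, and 21.5 against 58.7), Cyp6a8 (39.9 CPM in NaAsO2 females, and 12.9 against 50.3 in males) and Cyp311a1 (41.8 against 23.6, and 8.59 against 23.1) were under the count minimum. Few nuclei stand behind these values, 69 of them in NaAsO2 males.

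In the other neuronal nuclei most P450 genes were near their control level. In females 4 of 31 genes were higher and 1 lower (3.76% and 1.19% of all genes), and in males 2 of 24 were higher and 6 lower (2.91% and 30.6% of all genes). Cyp49a1 had log2 ratios of 0.08 in females (interval 0.00 to 0.15) and -0.19 in males (-0.26 to -0.11). The female calls besides Cyp4ac3 were Cyp6w1 (3.34 against 2.03 CPM), Cyp4ac1 (0.994 against 0.598), Cyp311a1 (1.05 against 0.455) and, lower, Cyp6g2 (0.580 against 0.958). Few UMIs stand behind Cyp4ac1 (36 against 25) and Cyp6g2 (21 against 40). In males Cyp4s3 was higher (4.42 against 2.18 CPM), and Cyp6w1 (1.36 against 3.54), Cyp305a1 (0.744 against 2.27), Cyp12a4 (2.89 against 6.30), Cyp6d5 (0.832 against 1.73), Cyp6a20 (1.14 against 2.27) and Cyp6a9 (0.832 against 1.28) were lower. The neuronal level of Cyp6w1 was 8.54% to 13.6% of its glial level over the 4 libraries, that of Cyp6a20 5.47% to 10.1% and that of Cyp6a9 5.98% to 7.27%, against 3.55% to 23.8% for the 3 glial markers. In photoreceptor-like nuclei no member reached the minimum in females (4.45% of all genes higher, 6.23% lower), and in males Cyp49a1 alone did, with 121 CPM in NaAsO2 males against 78.9 in control males (1 of 1 higher and 0 lower, where 31.6% and 25.9% of all genes were called).

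The remaining whole-library calls follow. In NaAsO2 females against control females, Cyp4d8 had 0.904 against 0.225 CPM, Cyp6a8 0.882 against 0.225, shd 0.838 against 0.244, Cyp4e2 3.06 against 1.01, Cyp4p1 2.14 against 1.03, Cyp6d4 1.32 against 0.693, Cyp9b2 1.17 against 0.618, Cyp12c1 1.19 against 0.656, Cyp4ac1 1.63 against 0.956 and Cyp6d5 5.93 against 3.60. Cyp9h1 (5.62 against 2.16 CPM), Cyp6w1 (10.1 against 6.17), Cyp6a23 and Cyp311a1 (6.48 against 2.98) completed the female list with Cyp4ac3. In NaAsO2 males against control males, Cyp6a23 had 1.52 against 6.26 CPM, Cyp4d8 had 0.379 against 1.35 CPM, Cyp305a1 2.27 against 8.15, Cyp9b2 0.933 against 2.86, Cyp6d4 0.467 against 1.41, Cyp6w1 4.35 against 13.2, Cyp6a22 0.408 against 1.11, Cyp6a20 4.29 against 11.4, Cyp18a1 1.31 against 3.43 and Cyp6d5 3.24 against 7.67. Male lower calls closer to the fold used were Cyp9f2 (15.7 against 28.3 CPM), Cyp6a13 (2.80 against 4.66), Cyp6a9 (4.02 against 6.56), Cyp6v1 (5.83 against 8.88) and Cyp12a4 (8.14 against 12.3). Cyp311a1 was higher in NaAsO2 males as well, with 2.95 CPM against 1.23 in control males.

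The defining markers of a class moved the same way as its P450 sum in 7 of 9 classes in females and 6 of 9 in males. In subperineurial glia-like nuclei the 10 markers summed to 7228 CPM in NaAsO2 females against 5093 in control females, and to 3172 in NaAsO2 males against 8106 in control males. In fat body cell-like nuclei 13 markers summed to 44117 against 33854 CPM in females and 33896 against 96819 in males, and in plasmatocyte-like nuclei 13 markers summed to 33140 against 14341 and 13954 against 28359. The glial markers repo, loco and nrv2 summed to 974 against 876 CPM in female glia and 425 against 852 in male glia. Most of the male difference lay in nrv2, with 270 CPM in NaAsO2 males against 667.5 in control males. In the same male glia repo had 70.3 against 95.1 CPM and loco 83.9 against 89.7. In female glia nrv2 had 722.5 against 675.7 CPM, repo 139.4 against 111 and loco 112.3 against 88.9. The 5 neuronal markers in glia were at 7544 against 9196 CPM in females and 11199 against 7087 in males. The part of these shifts in the P450 ratios was not tested. Against the sum of the markers of its own class, the log2 ratio of Cyp4ac3 in cortex glia-like nuclei was 0.79 in females and 3.02 in males, and that of Cyp4e2 in fat body cell-like nuclei 2.12 and 2.53. Of 90 called ratios, 47 were past the fold in the same direction on that scale, 74 kept the direction, and counted as mean UMIs per nucleus 70 kept it and 38 were past the fold, with most of the reversals among lower calls in males.

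**Figure D5:**
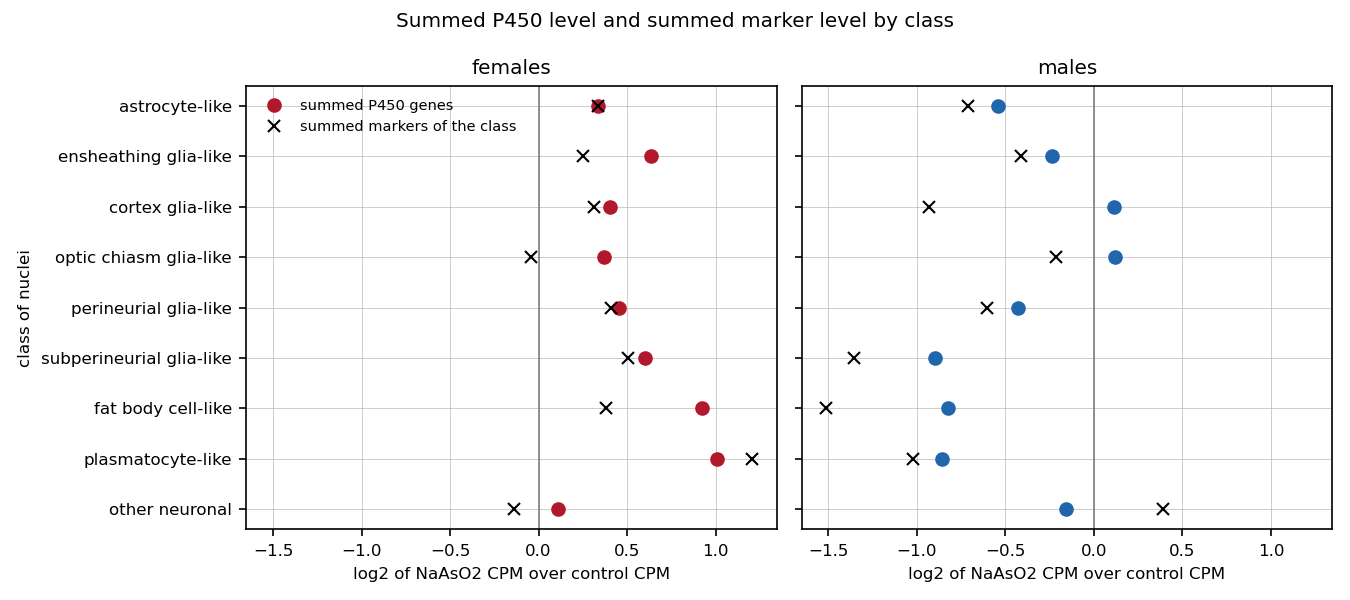
Log2 ratio of NaAsO2 over control CPM for the sum of the P450 genes (filled circles) and for the sum of the markers of the class (crosses) in 9 classes of nuclei, in females (left) and males (right). In females both lie right of 0 in 7 of the 9 classes, and in males the markers lie left of 0 in the 8 glial, fat body and plasmatocyte classes and further left than the P450 sum (subperineurial -1.35 against -0.90).

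The partners of the P450 enzymes were read from a list of 14 genes for the reductase, cytochrome b5, ferredoxins and heme metabolism. In whole libraries 1 of 14 was higher in females and 0 lower (6.46% and 1.23% of all genes). In males 0 were higher and 5 lower (3.88% and 23.2% of all genes). The median log2 ratio was 0.19 in females, against 0.09 over all genes, and -0.42 in males, against -0.21 over all genes. Cyt-b5-r, a cytochrome b5 related gene that was mostly a fat body transcript, had 9.44 CPM in NaAsO2 females against 4.63 in control females, and 10.4 in NaAsO2 males against 27.7 in control males. Cpr, the reductase, had 39.3 against 35.6 CPM in females and 28.2 against 43.3 in males. Fdx1 (9.07 against 14.7 CPM), heme oxygenase Ho (21.4 against 37.5) and Ppox of heme synthesis (1.37 against 2.17) were the other male calls. In pooled glia 0 of 12 were higher and 1 lower in females (5.07% and 1.84% of all genes), Coprox (3.58 against 5.56 CPM). In male glia 0 of 12 were higher and 5 lower (3.87% and 27.9% of all genes). The lower ones were Cpr (41.2 against 74.6 CPM), Fdx1 (7.55 against 14.3), Ho (18.9 against 33.9), Urod (10.1 against 15.2) and Cyt-b5-r (3.26 against 4.93). In fat body cell-like nuclei Cyt-b5 was higher in both sexes (155 against 99.4 CPM in females, 202 against 119 in males), and Cyt-b5-r was higher in females (664 against 302) and lower in males (597 against 1516).

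Of 12 genes of steroid hormone synthesis and response, 1 of the 7 that reached the minimum was higher in female libraries, shd, and 0 of 6 were called in male libraries. Of all genes, 6.46% were higher and 1.23% lower in female libraries, and 3.88% and 23.2% in male libraries. In male glia 2 of 6 were higher and 0 lower (3.87% and 27.9% of all genes). These were the oxygenase nvd (4.98 against 3.29 CPM) and the ecdysone response gene Eip75B (1264 against 828). Of 11 transcription factors known to control P450 genes, 0 were called in female libraries and 1, ss, was higher in male libraries (2.74 against 1.5 CPM). Their median log2 ratio was 0.07 in females, against 0.09 over all genes, and 0.17 in males, against -0.21 over all genes. The Nrf2 homologue cnc had 688 CPM in NaAsO2 female fat body cell-like nuclei against 401 in control females, and 1209 in NaAsO2 males against 509 in control males. In pooled glia cnc was called in neither sex, while in male glia the nuclear receptor Hr38 had 95.9 against 60.5 CPM. The partner of cnc, maf-S, was called in opposite directions in males, lower in pooled glia (41.3 against 65.5 CPM) and higher in fat body cell-like nuclei (78.4 against 45.4, log2 ratio 0.79, interval -0.07 to 1.65). The juvenile hormone receptor gene gce was also higher in male fat body cell-like nuclei (434 against 201 CPM). In those nuclei 37.6% of all genes were called higher in males.

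The 21 P450 genes with under 100 UMIs were Cyp303a1, Cyp12a5, Cyp6a22, shd, Cyp309a1, Cyp4g1, Cyp310a1, Cyp9b1, Cyp6a19, Cyp4d21, Cyp6a17, Cyp4aa1, Cyp313a5, Cyp4e1, Cyp4d1, Cyp6a21, Cyp4e3, Cyp6a18, Cyp4ad1, Cyp304a1 and Cyp6d2. Cyp4g1, the hydrocarbon enzyme of oenocytes, was at 0.181 to 0.450 CPM in the 4 libraries. Cyp4d21, known as a gene of the male head, had 0 CPM in NaAsO2 females, 0.0375 in control females, 0.350 in NaAsO2 males and 0.662 in control males. In plasmatocyte-like nuclei Cyp6a17, which influences temperature preference, had 7.61 CPM in NaAsO2 females, 2.36 in control females, 4.30 in NaAsO2 males and 48.2 in control males, from 1 to 23 UMIs. The male log2 ratio there had an interval of -8.85 to -0.87, and the gene was under the count minimum. Of these 21 genes only shd in females and Cyp6a22 in males were called with NaAsO2 in whole libraries, as given above.

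The gene that is no P450, scramb2, was level, with 13.7 CPM in NaAsO2 females, 12.5 in control females, 14.4 in NaAsO2 males and 13.3 in control males. Its log2 ratio in neurons was 0.13 in females (interval -0.06 to 0.31) and -0.16 in males (-0.40 to 0.08).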

How the data were processed

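The 4 deposited matrices hold counts of UMIs per gene and nucleus, made by the authors with Cell Ranger and with no normalization. The labels give version 3.1 of Cell Ranger, and the file headers a later one. Genes were matched by identifier to RefSeq release 6 (17705 of 17772), and no sequence is shown. Counts were read with Python 3.11.15, NumPy 2.4.6, SciPy 1.17.1, pandas 2.3.3 and scanpy 1.11.5. Nuclei were clustered without the P450 genes and other genes of interest (304 in all), from Pearson residuals (theta 100) of 3000 variable genes, 10 principal components, 20 neighbours and Louvain resolution 1 (igraph 0.11.9, 30 clusters), with glia clustered again at 0.5, and named "-like" from marker lists. The naming thresholds and the rule that assigns a gene to a class were set after the clusters were seen. Doublets were kept in the main values.

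UMIs were summed per class and library. CPM have exact Poisson intervals, and log2 ratios exact conditional binomial intervals. Intervals and the floor of 3 counts cover counting error only. No comparison was tested, for lack of replicates, and the median UMIs per nucleus limit low genes most. The sums and ratios were checked on simulated counts.

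The members and gene lists were chosen with earlier results of these data known. Named were members with at least 100 UMIs, each class call at 1.5-fold with at least 50 UMIs over the pair of libraries, the members named in the study's text, and list genes past the same limits. Alternatives were mean UMIs per nucleus, centring on the median of all genes, minimums of 20 and 100 UMIs, a 2-fold limit, nuclei with at least 1766 UMIs, removal of nuclei with the highest Scrublet scores (8% to 20.3% of a library) and Louvain resolution 2. Scaling to class markers and leaving out 1 unnamed cluster were added after seeing the data.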

Additional observations from a re-analysis of the deposited data

Results flagged for a closer look

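In 21 pairs of gene and nuclei the NaAsO2 library lay at least 1.5-fold above its control in females and at least 1.5-fold below it in males, with each counting interval on 1 side of 0. The pairs are nested, since whole libraries hold the pooled glia and these hold the glial classes, so a gene can recur on the same UMIs. How many of all genes had this pattern was not counted. In the nuclei named below, 3.57% to 18.3% of all genes were called higher in females and 15.9% to 30.6% lower in males. The difference between the sexes was not tested, since each group is 1 library. The values below are log2 ratios of NaAsO2 over control CPM, for females and then for males.

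In whole libraries these genes were Cyp6a23 (2.125 and -2.045), Cyp4d8 (2.007 and -1.837), Cyp6d4 (0.9319 and -1.6), Cyp9b2 (0.918 and -1.615), Cyp6d5 (0.7209 and -1.245) and Cyp6w1 (0.718 and -1.601). In pooled glia they were Cyp9h1 (1.981 and -1.186) and Cyp6w1 (0.6222 and -1.82), and in other neuronal nuclei Cyp6w1 (0.7149 and -1.385).

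Subperineurial glia-like nuclei had the pattern for Cyp9h1 (2.013 and -1.908), Cyp4g15 (0.71 and -0.9144), Cyp9f2 (0.6997 and -1.846) and Cyp28d1 (0.6836 and -0.6052). Perineurial glia-like nuclei had it for Cyp28a5 (0.657 and -1.179), and ensheathing glia-like nuclei for Cyp12a4 (1 and -1.184) and Cyp6w1 (0.896 and -1.313). In plasmatocyte-like nuclei it held for Cyp6w1 (2.07 and -1.702), Cyp6a23 (1.775 and -2.116), Cyp6d5 (1.319 and -1.124) and Cyp9f2 (1.272 and -1.638), and in fat body cell-like nuclei for Cyp28d1 (0.9278 and -3.262). The summed markers of these glial, plasmatocyte-like and fat body cell-like nuclei were also higher with NaAsO2 in females and lower in males, and their part in these values was not tested. As mean UMIs per nucleus the opposite directions were lost for Cyp9h1 (male ratio 0.085), Cyp4g15 (1.079), Cyp9f2 (0.1471) and Cyp28d1 (1.388) in subperineurial nuclei, Cyp9h1 in pooled glia (0.0792), Cyp28a5 in perineurial nuclei (0.1307) and Cyp6w1 in neurons (female ratio -0.0088).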

How the results depend on the processing

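With 1 library per group, library and treatment cannot be told apart, and no alternative addresses that. No paired analysis was possible because each group is 1 library. Lower calls in males depended on the scale: counted per nucleus or against class markers many were lost or turned. The cause was not tested.

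In NaAsO2 females, 15 P450 genes were higher in the whole library and 0 lower. The higher count was 6 per nucleus, 9 at a minimum of 100 UMIs and 8 at 2-fold, and the lower count was 8 per nucleus. Of all genes in females, 1.64% were higher per nucleus, 4.89% at a minimum of 100 UMIs and 2.63% at 2-fold, and 42% were lower per nucleus. In NaAsO2 males, 2 were higher and 15 lower. The higher count was 10 per nucleus, 6 after centring, 3 at a minimum of 20 UMIs, 3 without doublets and 4 among nuclei with at least 1766 UMIs, where the lower count was 9. The lower count in males was 10 per nucleus and 10 at 2-fold. Of all genes in males, 34.4% were higher per nucleus, 8.58% after centring, 5.49% at a minimum of 20 UMIs and 3.74% without doublets. Among the deeper nuclei 4.31% were higher and 20.6% lower, and the lower share was 4.59% per nucleus and 7.66% at 2-fold. In female glia 7 were higher, and 3 per nucleus, at 2-fold, among the deeper nuclei and against markers, while the lower count of 0 became 1 per nucleus and at a minimum of 20 UMIs. Of all genes in female glia, 1.05% were higher per nucleus, 1.07% at 2-fold, 6.08% among the deeper nuclei and 2.84% against markers. The lower share was 22.7% per nucleus and 3.5% at a minimum of 20 UMIs. In male glia 2 were higher, and 13 per nucleus, 11 against markers, 3 after centring and at a minimum of 20 UMIs, and 1 at a minimum of 100 UMIs, among the deeper nuclei, without doublets and at resolution 2. Of all genes in male glia, 77.1% were higher per nucleus, 62.3% against markers, 10.5% after centring and 5.44% at a minimum of 20 UMIs. The higher share was 3.32% at a minimum of 100 UMIs, 3.9% among the deeper nuclei, 5.66% without doublets and 4.21% at resolution 2. The 9 lower in male glia became 2 per nucleus, 6 after centring, 6 at 2-fold, 13 at a minimum of 20 UMIs and 3 against markers. The lower shares of all genes were 1.43% per nucleus, 16.9% after centring, 10.9% at 2-fold, 28.8% at a minimum of 20 UMIs and 2.19% against markers. For pooled glia the markers were repo, loco and nrv2, and nrv2 was the largest part of their sum in each library. Between controls 1 gene was higher in females, and 4 per nucleus, 3 after centring, and 2 at a minimum of 20 UMIs and without doublets. The 17 lower in control females became 26 at a minimum of 20 UMIs and were 12 to 18 otherwise. Of all genes, 11.8% were higher in control females per nucleus, 5.71% after centring, 4.62% at a minimum of 20 UMIs and 3.23% without doublets. The lower share was 16.1% at a minimum of 20 UMIs and 4.97% to 14% otherwise. Leaving out the unnamed cluster that was mostly of NaAsO2 males gave 15 of 40 higher in females (6.49% of all genes). In males 17 of 37 were then lower (32% of all genes).

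Log2 ratios that turned in males per nucleus were, in subperineurial nuclei, Cyp6a9 1.179, Cyp9f2 0.1471, Cyp9h1 0.085, Cyp12a4 0.7955, Cyp28a5 0.8502, Cyp28d1 1.388 and Cyp4g15 1.079; in pooled glia Cyp6a9 0.5519, Cyp9f2 0.136, Cyp9h1 0.0792, Cyp12a4 0.6444 and Cyp4s3 0.6422; in perineurial nuclei Cyp28a5 0.1307. Astrocyte-like nuclei gave Cyp28d1 0.2576 and Cyp4g15 0.3654, cortex nuclei Cyp49a1 0.1179, Cyp6a9 0.0544 and Cyp9f2 0.1655, ensheathing nuclei Cyp4d2 0.3875, and female neurons Cyp6w1 -0.0088. Against markers the male ratios that turned were Cyp4ac1 0.2734, Cyp49a1 0.8811 and Cyp6d5 0.8233 in fat body nuclei, Cyp6a9 0.5395, Cyp12a4 0.1562, Cyp28a5 0.2109, Cyp28d1 0.7483 and Cyp4g15 0.4392 in subperineurial nuclei, and Cyp6a9 0.2921, Cyp12a4 0.3846 and Cyp4s3 0.3824 in pooled glia. Cortex nuclei gave Cyp49a1 0.2233, Cyp6a9 0.1598 and Cyp9f2 0.2708, astrocyte-like nuclei Cyp4g15 0.0817, and female plasmatocyte-like nuclei Cyp6v1 -0.3608. Cyp4g15 in males turned in subperineurial nuclei at resolution 2 (0.3057) and in astrocyte-like nuclei among the deeper nuclei (0.1877), as did Cyp9f2 in female ensheathing nuclei among the deeper ones (-0.3793).

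After centring 82 of the 90 called ratios kept direction and fold, without doublets 74 of 79 that could be compared, at resolution 2 78 of 82 and among the deeper nuclei 52 of 64. Of the 90, 38 did so per nucleus and 47 against markers. The class of a gene stayed for 36 of 38 at resolution 2 and 34 of 38 without doublets.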

Other observations

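Nuclei in no named class numbered 411 in NaAsO2 females, 588 in control females, 1193 in NaAsO2 males and 303 in control males, and some P450 genes were high there. In them Cyp305a1 had 71.1 CPM in NaAsO2 females, 80.2 in control females, 7.43 in NaAsO2 males and 77.2 in control males. That was above its level in every named class of the same library in NaAsO2 females, control females and control males, but not in NaAsO2 males, where fat body cell-like nuclei had 9.05 CPM and plasmatocyte-like nuclei 8.59 CPM. Cyp311a1 had 82.3, 28, 8.87 and 10.5 CPM in the same order, and Cyp18a1 32.6, 37.8, 5.36 and 78.5. Of these nuclei 1 cluster of 1306 held 1061 nuclei of NaAsO2 males. Over all nuclei in no named class Cyp4d2 had 6.95, 7, 76.5 and 24.9 CPM and Cyp49a1 62.0, 53.2, 162 and 60.2 CPM in the same order.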
